A study of Mus musculus with 10 samples.

Results

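The proteasome subunit genes were taken as every row of the 4 deposited gene tables whose symbol is Psm, a letter from a to g and a number. The rule found 49 rows with 48 different symbols among the 36806 rows of each table; Psmd14 is listed under 2 identifiers at 1 locus. By role they were 8 alpha and 7 constitutive beta genes of the 20S core, 4 inducible or tissue-restricted beta genes, 6 ATPase and 12 non-ATPase rows of the 19S cap, 5 activators or inhibitors and 7 assembly chaperones. The study compared Ago4-/- mice, which lack the small-RNA-binding Argonaute protein Ago4, with Ago4+/+ littermates on C57BL/6. One mRNA library was made for each genotype from pachytene spermatocytes and from leptotene/zygotene spermatocytes at 70 days, and from whole testis at 3 and at 8 days of age, which gives 8 libraries with 1 per genotype and stage.

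The proteasome is the protease that degrades proteins tagged with ubiquitin. Alpha and beta rings form the 20S core, whose active sites lie on 3 of the beta subunits, and caps on its ends open the core. The 19S cap binds ubiquitin and unfolds the substrate with its ATPase ring, while the activators Psme1 with Psme2, Psme3 and Psme4 open the core without ubiquitin. Male germ cells are known to use their own core subunit, Psma8, and the activator Psme4 during meiosis and spermatid maturation.

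Each table has 2 value columns, named only as a first and a second condition. Neither the labels nor the tables used here say which of them is Ago4+/+, and the order may differ between tables, so values are given by condition and no genotype is named for them. Ago4 itself, listed under its older symbol Eif2c4, was at 0.897 and 1.23 FPKM (a fragment level scaled for transcript length and library size) in the first and second day 3 libraries, 2.53 and 3.34 in the pre-meiotic table, 1.67 and 3.26 in the leptotene/zygotene table, and 4.37 and 12.1 in the pachytene table. It was listed above 0 in every library; which part of the gene the deletion takes out is not stated here, and this level checks no label. The pre-meiotic table was tied to young whole testis but to neither of the 2 ages.

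The libraries went against their stage label in one table. Summed over the spermatid genes Prm1, Prm2, Tnp1, Acrv1 and Spaca1, the libraries labelled leptotene/zygotene held 37824 and 45807 FPKM, against 5669 and 7604 in pachytene, 53.2 and 49.1 in pre-meiotic and 3.2 and 2.28 in day 3 libraries. Summed over Stra8, Dmc1, Prdm9 and Sycp3, genes of meiotic entry and early prophase, they held 88.2 and 71.6 FPKM, less than the 272 and 157 FPKM of the pre-meiotic libraries. The pachytene libraries held 6994 and 6976 FPKM of the pachytene genes Piwil1, Mybl1, Hspa2, Ldhc and Pgk2, but the libraries labelled leptotene/zygotene held 6348 and 6017 FPKM of them too. Sertoli genes summed to 2339 to 2487 FPKM in the whole-testis libraries and to 43.8 to 117 FPKM in those labelled as spermatocytes. The latter are called spermatocyte libraries below by label only, since all of them held the spermatid transcripts given above. In bulk samples, fewer cells of a type and less RNA per cell cannot be told apart.

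The more abundant of the paired alpha subunit transcripts differed between whole testis and the spermatocyte libraries. Psma7 encodes the alpha subunit found in the core of most tissues, and Psma8 encodes its testis counterpart at the same ring position. Psma7 was at 304 and 421 FPKM in the 2 day 3 libraries, 249 and 270 in the pre-meiotic, 7.75 and 11.6 in the leptotene/zygotene and 17.01 and 15.6 in the pachytene libraries. Psma8 was at 3.52 and 2.58, 9.19 and 10.03, 29.7 and 87.1, and 167 and 374 FPKM in the same order. The 4 whole-testis libraries were thus all high for Psma7 and low for Psma8, and the 4 spermatocyte libraries the reverse, with no overlap for either gene. The share of all genes separated in this way over the 8 libraries was not measured. Against the pre-meiotic libraries alone, separation was common in FPKM as deposited. Without overlap and at least 2-fold, 25.1% of all genes were higher and 53.6% lower in leptotene/zygotene libraries. In pachytene libraries the shares were 25.2% and 48.8%. Of the summed FPKM of the pair, Psma8 made up 1.14% and 0.609% in day 3, 3.57% and 3.58% in pre-meiotic, 79.3% and 88.3% in leptotene/zygotene and 90.8% and 96.0% in pachytene libraries. This share is taken within a library and does not depend on how the library was scaled. The sum of the pair was 308 and 424 FPKM in day 3 and 258 and 280 in pre-meiotic libraries. It was 37.5 and 98.7 FPKM in leptotene/zygotene and 184 and 389 in pachytene libraries. At leptotene/zygotene Psma8 thus stood below the pre-meiotic level of Psma7.

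**Figure D1:**
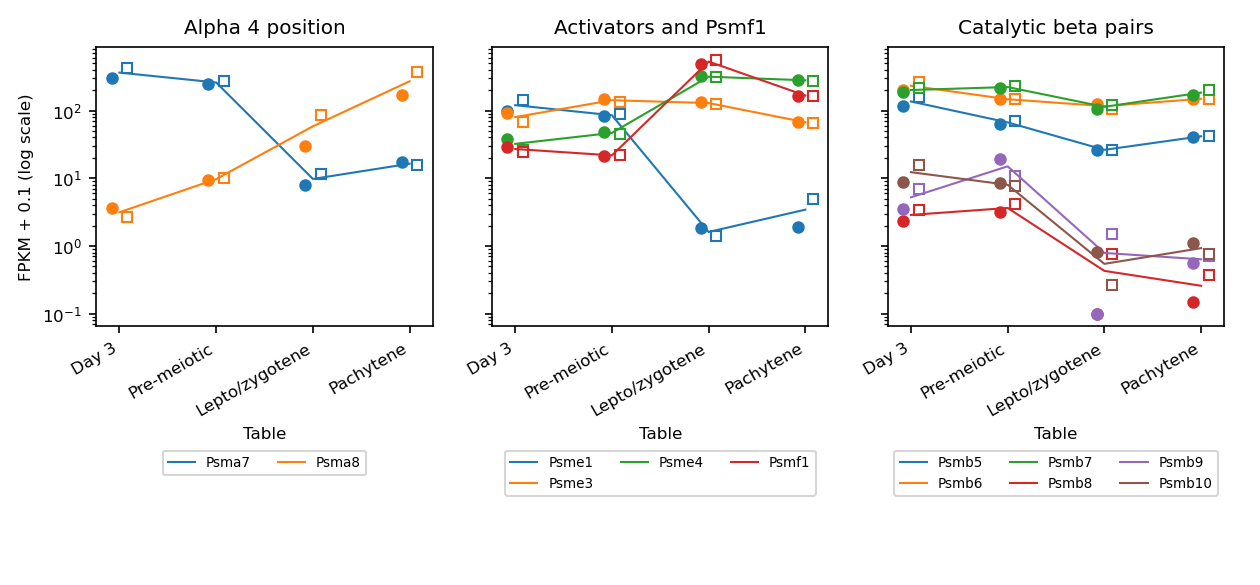
FPKM plus 0.1 on a log axis for Psma7 and Psma8, for the activators and Psmf1, and for the catalytic beta genes, by table; filled circles are the first and open squares the second condition, and lines join the means of the 2. Psma7 and Psma8 cross between the pre-meiotic and leptotene/zygotene tables, Psme4 and Psmf1 stand above Psme1 in the spermatocyte libraries, and Psmb8, Psmb9 and Psmb10 lie below 2 FPKM there.

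The activators showed a second contrast. Psme1, a subunit of the ring-shaped activator tied to antigen processing, was at 99.1 and 141 FPKM in day 3, 82.0 and 88.2 in pre-meiotic, 1.71 and 1.31 in leptotene/zygotene and 1.80 and 4.88 in pachytene libraries. Psme4, the single-chain activator of the testis, was at 37.8 and 26.4, 47.8 and 45.5, 322 and 310, and 286 and 272 FPKM in the same order. All 4 spermatocyte libraries lay above all 4 whole-testis libraries for Psme4 and below them for Psme1. Separation from the pre-meiotic libraries was common over all genes, by the shares given above for Psma7 and Psma8. Psme3, a nuclear activator, showed no such separation, at 93.0 and 66.7, 149 and 135, 134 and 123, and 68.5 and 65.6 FPKM. Of the FPKM summed over Psme1 to Psme4, Psme4 made up 6.33% to 16.0% in the whole-testis libraries. It made up 70.3% and 71.3% in those labelled leptotene/zygotene and 80.2% and 79.3% in pachytene. The sum leaves out Psme2b-ps, a near-identical copy of Psme2, at 78.3 and 116 FPKM in day 3 and 135 and 137 in pre-meiotic libraries. With that row added, the whole-testis shares of Psme4 would be lower.

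Psme2, the partner of Psme1, was at 127 and 183 FPKM in day 3, 20.2 and 18.4 in pre-meiotic, 0.34 and 0.56 in pachytene libraries, and was listed at 0 in both leptotene/zygotene libraries. Its value is uncertain, since the tables also list a near-identical copy, Psme2b-ps, at 78.3 and 116, 135 and 137, 4.38 and 3.23, and 3.20 and 5.35 FPKM in day 3, pre-meiotic, leptotene/zygotene and pachytene libraries. The sum of the 2 rows was 205 and 299 FPKM in day 3, 155 and 156 in pre-meiotic, 4.38 and 3.23 in leptotene/zygotene and 3.54 and 5.91 in pachytene libraries. The pre-meiotic level of Psme2 alone was thus low against day 3, while the sum of the pair stayed over 150 FPKM there and was low in all 4 spermatocyte libraries.

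Psmf1, which encodes a regulator first described as an inhibitor of the 20S core, was at 29.3 and 24.6 FPKM in day 3, 21.3 and 22.04 in pre-meiotic, 493 and 563 in leptotene/zygotene and 166 and 166 in pachytene libraries. It was highest in both libraries labelled leptotene/zygotene, next in both pachytene libraries and lowest in whole testis, with no overlap, and its locus holds no other listed gene. The share of all genes in this order was not measured, and separation from the pre-meiotic libraries was common, as given above.

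The catalytic beta genes came in 3 pairs, each with a constitutive gene and one that interferon induces in immune and other cells. The constitutive Psmb5 was at 116 and 156 FPKM in day 3, 63.6 and 69.8 in pre-meiotic, 26.3 and 26.1 in leptotene/zygotene and 40.7 and 42.5 in pachytene libraries. Psmb6 ranged from 106 to 262 FPKM and Psmb7 from 106 to 233 FPKM over the 8 libraries. The inducible genes were lower throughout. Psmb8 was at 2.21 and 3.34 FPKM in day 3, 3.08 and 4.01 in pre-meiotic, 0 and 0.66 in leptotene/zygotene and 0.05 and 0.27 in pachytene libraries. Psmb9 was at 3.46 and 6.83, 18.9 and 10.9, 0 and 1.38, and 0.46 and 0.61 FPKM, and Psmb10 at 8.68 and 15.7, 8.27 and 7.54, 0.72 and 0.17, and 1.01 and 0.65 FPKM. All 3 were lower in each spermatocyte library than in any whole-testis library. Lower FPKM was common there. Without overlap and at least 2-fold, 53.6% of all genes were lower in leptotene/zygotene and 48.8% in pachytene than in pre-meiotic libraries.

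The 3 inducible genes made up 2.77% and 3.92% of the FPKM of the 6 catalytic genes in day 3 libraries, 6.68% and 4.76% in pre-meiotic, 0.279% and 0.865% in leptotene/zygotene and 0.422% and 0.390% in pachytene libraries. Psmb9 shares its listed locus with Tap1, and Psmb10 with 3 other genes; without strand, reads of overlapping genes cannot be told apart. Psmb11, the thymus gene of the family, was at most 0.0416 FPKM in every library.

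Genes of antigen presentation and of other cells were measured beside these values. B2m, the light chain of class I molecules, was at 83.2 and 155 FPKM in day 3, 93.8 and 90.9 in pre-meiotic, 7.79 and 14.8 in leptotene/zygotene and 10.04 and 28.9 in pachytene libraries, and Tap1, a subunit of the peptide transporter, at 11.2 and 11.8, 16.4 and 14.2, 0 and 0.0584, and 0.380 and 0.685 FPKM. A list of 7 leukocyte genes summed to 77.3 and 108, 40.0 and 64.0, 14.9 and 63.8, and 6.84 and 48.5 FPKM; its defining gene Ptprc was under 1 FPKM in all 8 libraries. The Sertoli sum was thus lower in all 4 spermatocyte libraries, while the leukocyte sum of the second library labelled leptotene/zygotene was close to that of a pre-meiotic library; their part in the level of the inducible genes was not tested.

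The remaining core and cap genes were compared between the spermatocyte and the pre-meiotic libraries by a rule: both libraries of one table above both of the other, and at least 2-fold between their means. The tables were normalized separately, and the median gene was 1.35 lower on the log2 scale in the leptotene/zygotene than in the pre-meiotic table and 0.98 lower in the pachytene table. The median log2 ratio of the proteasome rows was -1.44 and -0.71. Genes are therefore named below only where the rule held both on the deposited scale and on a common scale, set by the median over 10413 genes measured at 1 FPKM or more in all 8 libraries. Psmb11, under 1 FPKM throughout, was left out, which leaves 48 rows. There is no replicate per group and no test here, and both comparisons share the pre-meiotic libraries.

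At pachytene, 6 of 48 rows were higher than in pre-meiotic testis on both scales, beside 25.8% of all genes, and 13 of 48 were lower, beside 37.2% of all genes; both shares of the proteasome rows, 12.5% and 27.1%, were below those of all genes. On the deposited scale the counts were 6 and 21, beside 25.2% and 48.8% of all genes, and on the common scale 8 and 13, beside 32.9% and 37.1%. With the common scale set without the libraries labelled leptotene/zygotene, 6 rows were higher and 9 lower on both scales, beside 25.4% and 35.6% of all genes; the 6 were the same genes, and Psma1, Psma2, Psmb3 and Psmg3 left the lower ones. The 6 were Psma8, Psme4, Psmf1, Psmc3, Psmc2 and Psmd8. The 13 lower rows were Psma1, Psma2 and Psma7 of the alpha ring, Psmb2 and Psmb3 of the beta ring, the inducible Psmb8, Psmb9 and Psmb10, the activator genes Psme1 and Psme2, the ATPase Psmc6 and the chaperones Psmd5 and Psmg3. The other 29 rows met the rule on both scales in neither direction; among them were Psmb6, Psmb7 and Psmd13.

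In the libraries labelled leptotene/zygotene, 7 of 48 rows were higher than in pre-meiotic testis on both scales, beside 25.5% of all genes, and 17 of 48 were lower, beside 37.6% of all genes. On the deposited scale the counts were 7 and 27, beside 25.1% and 53.6% of all genes, and on the common scale 9 and 17, beside 36.2% and 36.8%, so that the share of lower rows there, 35.4%, was about that of all genes. The 7 were the 6 genes named for pachytene and Psma6, and the 17 were the 13 named for pachytene with Psmb1, Psmc4, Psmg1 and the first identifier of Psmd14. Psma6 at pachytene passed the rule on the common scale only.

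**Figure D2:**
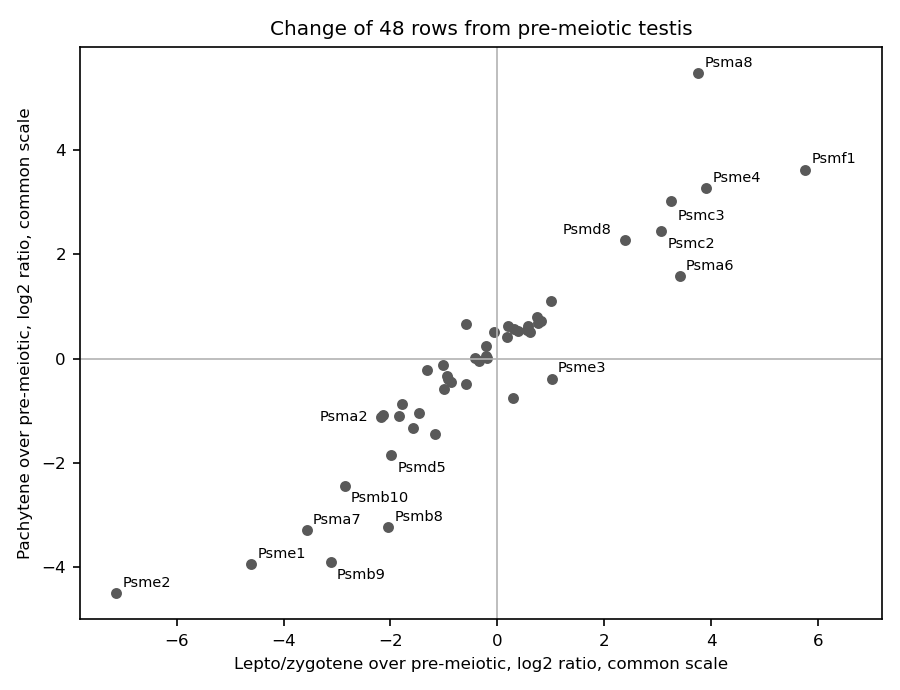
Log2 ratio of the mean level in leptotene/zygotene libraries (x axis) and in pachytene libraries (y axis) to that in pre-meiotic libraries, on the common scale, for 48 rows, each a point; Psmb11 is left out. Psma8, Psmf1, Psme4, Psmc3, Psmc2, Psma6 and Psmd8 lie at the upper right and Psme2, Psme1, Psma7 and the inducible beta genes at the lower left; the position of Psme2 on the x axis is set by the pseudocount, since it is listed at 0 in the leptotene/zygotene libraries, and the 2 axes share the pre-meiotic libraries.

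Few members of each complex were among the higher genes. Psma6, an alpha ring gene, was at 205 and 273 FPKM in day 3, 248 and 224 in pre-meiotic, 1062 and 1184 in leptotene/zygotene and 422 and 455 in pachytene libraries, while the alpha gene Psma2 was at 23.9 and 30.2, 20.7 and 19.7, 2.23 and 1.77, and 6.03 and 5.75 FPKM. Psma2 was the lowest of the 31 constitutive core and cap genes in all 8 libraries. Psmc3, an ATPase of the cap, was at 284 and 304, 258 and 228, 1065 and 1006, and 1257 and 1185 FPKM, and the ATPase Psmc6 was at 53.5 and 64.7, 73.1 and 63.2, 14.4 and 12.8, and 15.7 and 14.99 FPKM.

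A second ATPase gene, Psmc2, was at 72.8 and 89.8 FPKM in day 3, 73.6 and 73.3 in pre-meiotic, 282 and 271 in leptotene/zygotene and 245 and 250 in pachytene libraries. The cap lid gene Psmd8 was at 81.2 and 105, 76.0 and 74.2, 175 and 177, and 223 and 225 FPKM. For Psmc2 and Psmd8 the 2 libraries of each table labelled as spermatocytes lay close together and above every whole-testis library. Of the 49 rows, 19 share their listed locus with another gene, Psma6, Psmc3 and Psme4 among them, while Psmc2, Psmd8 and Psmf1 share theirs with no other listed gene.

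The spread among subunits of the same complex was wider in the spermatocyte libraries. The same spread over all genes was not measured here, so no trait particular to these genes is shown. Among the 31 constitutive core and cap genes, without Psma8, the highest FPKM was 22.02 and 21.5 times the lowest in the day 3 libraries, 19.1 times in both pre-meiotic libraries, 478 and 668 times in leptotene/zygotene and 208 and 206 times in pachytene libraries. The SD of their log2 levels was 0.959 to 1.03 in whole testis and 1.65 to 2.03 in the spermatocyte libraries. In rank order the 31 genes stood alike in day 3 and pre-meiotic tables (Spearman rho 0.89) and in leptotene/zygotene and pachytene tables (rho 0.96), and less alike between pre-meiotic and pachytene tables (rho 0.58); these are descriptions over genes, which share their libraries. Proteasome rows together took 0.475% to 0.681% of all FPKM in a library.

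**Figure D3:**
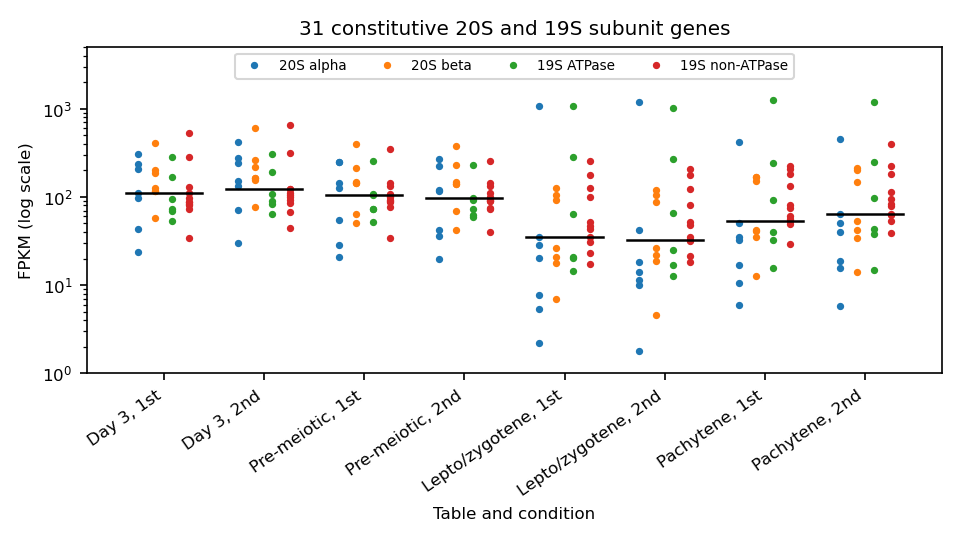
FPKM on a log axis of the 31 constitutive 20S and 19S subunit genes in each library, each point a gene coloured by role, with the median of the library as a black line. The points span about the same range in the 4 whole-testis libraries and a wider one in the 4 spermatocyte libraries, where Psma6 and Psmc3 stand at the top and Psma2 at the bottom.

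**Figure D4:**
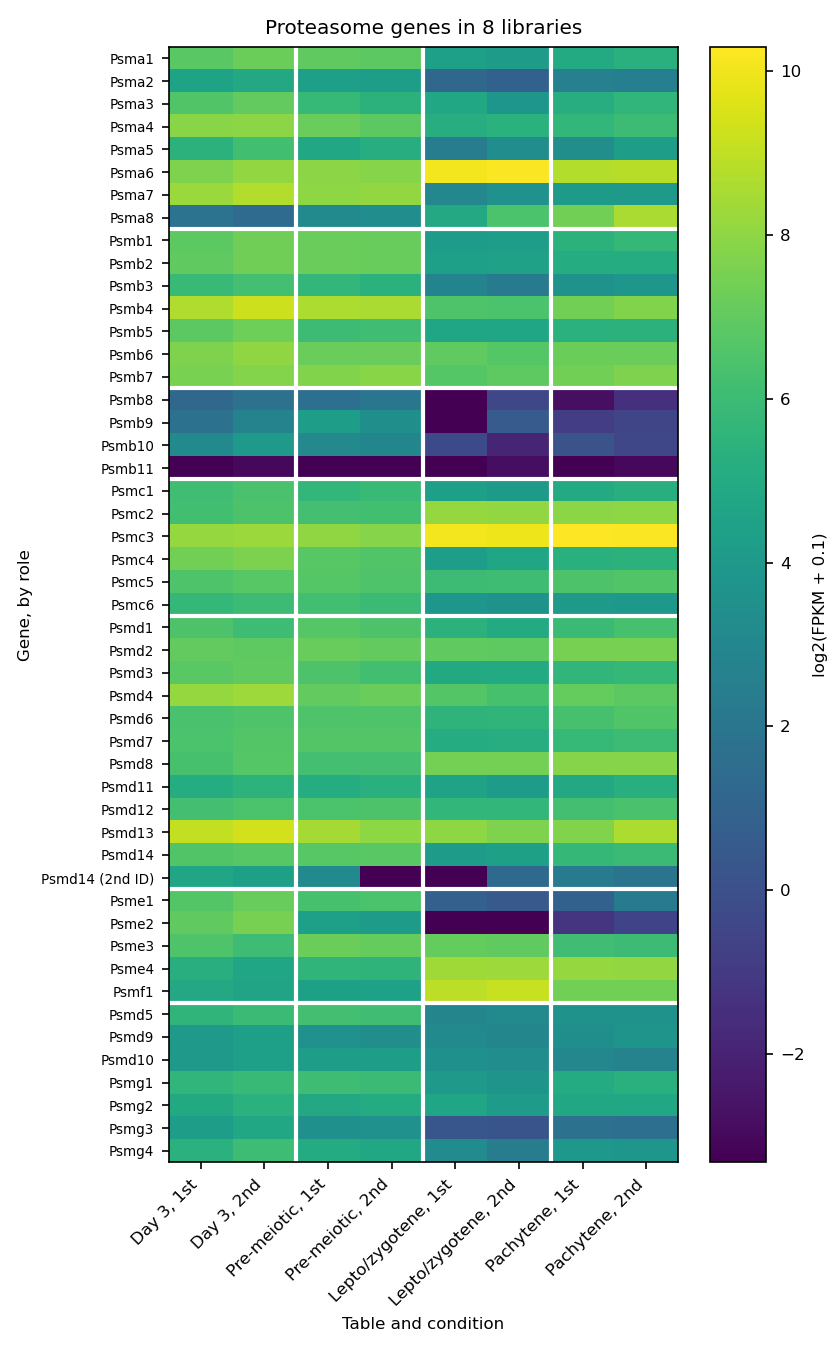
Log2(FPKM + 0.1) of the 49 rows, grouped by role (alpha, beta, inducible beta, ATPase, non-ATPase, activators and inhibitor, assembly chaperones), in the 8 libraries by table and condition. In the spermatocyte libraries Psma6 and Psmc3 are the brightest rows, and Psmb11, the inducible beta genes and Psme2 are among the darkest.

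Promoters of genes from both sides of this division are shown to let their letters be compared. Of 48 symbols, 40 matched RefSeq's table of promoters (GRCm38.p6), with 43 windows of the 250 bases before a start, since a few genes have more than 1 start. The genes without a window were Psma8, Psmb1, Psmb2, Psmb7, Psmc3, Psmd3, Psmd7 and Psmg2. The printed windows are Psma7 (chr2:180042465-180042714, minus strand) and Psme1 (chr14:55578244-55578493, plus strand), lower in the spermatocyte libraries, and Psme4 (chr11:30771525-30771774, plus strand), Psmf1 (chr2:151741311-151741560, minus strand) and the second listed start of Psma6 (chr12:55398575-55398824, plus strand), higher in them or in those labelled leptotene/zygotene. Capitals mark a CCAAT box in Psma7 and a MYB site in Psma6. The first listed start of Psma6 (chr12:55383972-55384221, plus strand), not printed, holds 2 CCAAT boxes and no MYB site, so these marks do not divide the 2 sides.
Psma7: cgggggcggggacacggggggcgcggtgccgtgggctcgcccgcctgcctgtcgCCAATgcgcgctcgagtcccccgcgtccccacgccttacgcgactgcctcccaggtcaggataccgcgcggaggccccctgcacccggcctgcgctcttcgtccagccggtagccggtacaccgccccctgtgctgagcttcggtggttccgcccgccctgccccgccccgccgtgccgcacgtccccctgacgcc
Psme1: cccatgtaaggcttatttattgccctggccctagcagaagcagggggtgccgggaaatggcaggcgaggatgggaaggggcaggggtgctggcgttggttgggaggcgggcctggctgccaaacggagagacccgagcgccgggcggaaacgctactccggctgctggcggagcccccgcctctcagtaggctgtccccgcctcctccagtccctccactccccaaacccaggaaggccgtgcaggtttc
Psme4: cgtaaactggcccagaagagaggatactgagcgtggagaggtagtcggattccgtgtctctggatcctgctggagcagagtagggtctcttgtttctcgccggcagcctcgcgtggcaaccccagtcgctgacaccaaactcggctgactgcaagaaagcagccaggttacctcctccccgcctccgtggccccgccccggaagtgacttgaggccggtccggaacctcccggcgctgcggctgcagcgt
Psmf1: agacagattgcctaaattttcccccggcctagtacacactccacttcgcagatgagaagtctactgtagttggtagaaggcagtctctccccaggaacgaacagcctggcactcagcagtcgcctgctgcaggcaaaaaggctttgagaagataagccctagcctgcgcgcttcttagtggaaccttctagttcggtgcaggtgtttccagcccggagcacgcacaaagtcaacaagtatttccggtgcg
Psma6: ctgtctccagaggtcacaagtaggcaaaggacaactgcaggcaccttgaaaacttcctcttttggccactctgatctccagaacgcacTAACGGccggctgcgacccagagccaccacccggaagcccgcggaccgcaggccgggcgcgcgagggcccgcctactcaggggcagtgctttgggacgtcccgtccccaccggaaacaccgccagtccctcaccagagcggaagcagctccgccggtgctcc

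Searched on both strands, CCAAT stood in 14 of 43 windows of these genes (32.6%) and in 33.8% of all 32851 windows, and the core of the antioxidant response element, TGACNNNGC, in 5 (11.6%) against 10.2%. The interferon-response core GAAANNGAA stood in 3 windows (6.98%) against 7.13%, the MYB site TAACGG in 1 (2.33%, the Psma6 window above) against 2.18%, GCATGCGC, the site of the factor NRF1, in 2 (4.65%, Psma2 and Psmc5) against 2.26%, and the cyclic AMP response element TGACGTCA in 0 against 1.55%. A match describes letters in these windows and is not a site of binding.

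Between the 2 conditions within a table, Psma8 was the 1 proteasome gene that the authors' q-value called in the spermatocyte tables. In the leptotene/zygotene table it was at 29.7 and 87.1 FPKM, 2.92-fold higher in the second library (log2 fold 1.55 with a counting and model error of 0.16), and in the pachytene table at 167 and 374 FPKM, 2.23-fold higher (1.16, error 0.11). This error is the authors' log2 fold over their test statistic and holds no spread between animals. The authors' deposited table lists its q-value as 0 in both, as it does for 4 genes in the leptotene/zygotene and 9 genes in the pachytene table. With the authors' q-value of at most 0.05, 1 of 47 tested proteasome rows was called in the leptotene/zygotene table, beside 2.14% of all genes tested, and 1 of 48 in the pachytene table, beside 1.63%.

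Ranked by fold among genes at 5 FPKM or more in either library, Psma8 stood 143rd of 10255 from the top in the leptotene/zygotene table and 162nd of 10872 in the pachytene table. Its flanking genes, named here after their values were seen, were not called by the authors in either table. Ss18 was at 9.40 and 11.4 FPKM in leptotene/zygotene and 16.0 and 15.4 in pachytene libraries, and Taf4b at 3.20 and 2.60, and 3.05 and 3.44 FPKM. None of the other genes that were higher in the spermatocyte libraries was called in these tables. Psme4, for example, differed by -0.05 and -0.07 on the log2 scale in the leptotene/zygotene and pachytene tables by the authors' deposited table.

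Markers of other cells differed between the same libraries. In the leptotene/zygotene table the 4 myoid genes summed to 6.995 and 33.1 FPKM and the 7 leukocyte genes to 14.9 and 63.8, and in the pachytene table to 10.98 and 25.9 and to 6.84 and 48.5 FPKM. The highest leukocyte gene in these 4 libraries was H2-Ab1, at 6.90 and 41.5 and at 3.35 and 43.5 FPKM, while Ptprc was at 0.250 and 0.343 and at 0.175 and 0.209 FPKM. The 4 globin genes of red cells summed to 38.7 and 333 FPKM in the leptotene/zygotene libraries and to 3.36 and 13.6 FPKM in the pachytene libraries. Spermatid genes summed to 37824 and 45807 FPKM in the leptotene/zygotene and 5669 and 7604 FPKM in the pachytene libraries, and pachytene genes to 6348 and 6017 and to 6994 and 6976 FPKM. The part of these differences in the level of Psma8 was not tested.

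Over the family, the folds in these 2 tables lay near those of all genes. The median log2 fold of second over first was -0.05 for proteasome rows and -0.07 for all genes in the leptotene/zygotene table, with 19 of 45 rows at 1 FPKM or more above 0 (42.6% of all genes), and 0.11 against 0.03 in the pachytene table, with 27 of 45 above 0 (53.4%). Psma5, an alpha ring gene, was at 5.43 and 10.2 FPKM in leptotene/zygotene and 10.5 and 18.8 in pachytene libraries; its q-values in the authors' deposited table were 0.679 and 0.465. Psmd13, a cap gene whose locus is shared with 3 others, was at 208 and 393 FPKM at pachytene, with a q-value of 0.264 in the authors' deposited table. Below 5 FPKM, Psme1 at pachytene had a larger log2 fold than Psma8, 1.39, and was not called. Psmb8, Psmb9 and the second identifier of Psmd14 were listed at 0 in the first leptotene/zygotene library. Their log2 folds of 2.92, 3.89 and 4.67 rest on the 0.1 added, and none of them was called.

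**Figure D5:**
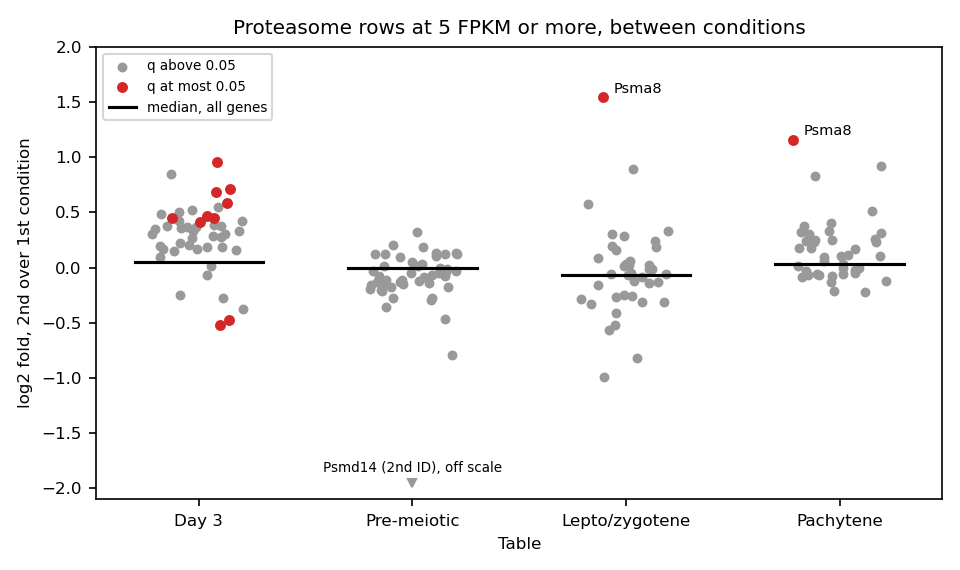
Log2 fold of the second over the first condition for proteasome rows at 5 FPKM or more, by table; red points have an authors' q-value of at most 0.05, gray points a higher one, and the black line is the median of all genes. Psma8 stands above the rest in the leptotene/zygotene and pachytene tables, and most day 3 points lie above the median of all genes; the second identifier of Psmd14, listed at 0 in 1 pre-meiotic library, is off the scale and shown as a triangle.

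By the authors' q-value (Cuffdiff), 0 of 48 rows were called between the pre-meiotic libraries, beside 1.15% of all genes, and 4 had an unadjusted p-value of at most 0.05, beside 10.5% of all genes. The median log2 fold was -0.07 for proteasome rows and -0.01 for all genes. Psmb9 was at 18.9 and 10.9 FPKM, with a q-value of 0.472 in the authors' deposited table.

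The day 3 table differed from the others. Of 48 rows, 10 were called, beside 14.8% of all genes: 8 were higher in the second library, beside 4.8%, and 2 were lower, beside 9.97%. The 8 were the alpha genes Psma1, Psma3, Psma5, Psma6 and Psma7, the beta gene Psmb4, the inducible Psmb9 and the assembly chaperone Psmg4, and the 2 were the activators Psme3 and Psme4. Psmb4 was at 404 and 606 FPKM (log2 fold 0.59), Psma5 at 43.4 and 71.0 (0.71) and Psme4 at 37.8 and 26.4 (-0.52), with q-values of 0.0119, 0.0102 and 0.0102 in the authors' deposited table. Of the rows, 41 of 48 lay above 0, against 53.3% of all genes, and their median log2 fold was 0.33 against 0.05 for all genes. The median counting and model error of a single row's log2 fold was 0.22 in this table. No 19S cap row was among the 10.

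The day 3 fold also varied with the length of the locus over all genes. Among genes at 5 FPKM or more that stood alone at their locus, the median log2 fold was 0.36 for the 3182 genes under 10000 bp, 0.09 for the 2390 genes of 10000 to 30000 bp and -0.21 for the 1805 genes of 30000 to 100000 bp. Proteasome genes in these classes had medians of 0.37 (13 genes), 0.35 (12 genes) and 0.38 (2 genes), so the shortest class lay at the level of all short genes and the 2 longer classes above that of genes of like length. In the other 3 tables the medians of the 3 classes over all genes lay between -0.08 and 0.07. Undifferentiated spermatogonia genes summed to 24.1 and 9.78 FPKM in the same 2 libraries. The part of length and of cell makeup in the day 3 calls was not tested.

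Genes that work with the proteasome were followed as lists over the same stages. Of 10 proteasome-associated genes outside the name rule, 2 were higher at pachytene than in pre-meiotic testis on both scales and 3 were lower, beside 25.8% and 37.2% of all genes, the shares that also stand beside the counts of the next 3 lists. Ubxn11, a gene of the UBX-domain family, was at 19.3 and 16.6 FPKM in pre-meiotic, 667 and 746 in leptotene/zygotene and 415 and 426 in pachytene libraries, and Usp14, the deubiquitinase of the cap, at 80.2 and 84.4, 16.3 and 12.1, and 20.7 and 22.5 FPKM. Of 6 genes of proteasome transcription, 2 were higher and 2 lower at pachytene, which is close to those shares. The higher ones were Ngly1, which processes the factor Nfe2l1, at 13.2 and 11.8, 160 and 157, and 111 and 99.3 FPKM, and the protease Ddi1, at 0 and 0.324, 232 and 241, and 111 and 95.6 FPKM. The factor Nfe2l1 itself was at 186 and 203, 23.4 and 16.3, and 28.9 and 28.2 FPKM.

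Of 16 genes of ubiquitin supply and its shuttles, 5 were lower at pachytene, also close to the share of all genes. The polyubiquitin gene Ubb was at 912 and 918 FPKM in pre-meiotic, 2393 and 2069 in leptotene/zygotene and 2693 and 2434 in pachytene libraries, whereas Rps27a, which encodes ubiquitin fused to a ribosomal protein, was at 147 and 149, 12.2 and 13.2, and 36.6 and 49.8 FPKM. Uba1, the main ubiquitin-activating enzyme, was at 296 and 320, 98.7 and 57.6, and 54.2 and 32.7 FPKM, and in the authors' deposited table it was lower in the second library of both spermatocyte tables, with q-values of 2.5e-05 and 0.015. Of 10 antigen presentation genes, 1, Cd74, was higher at pachytene than in pre-meiotic testis and 5 were lower.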

How the data were processed

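The authors deposited 4 tables of FPKM, 1 per stage with 2 conditions, and the p-values, q-values, log2 folds and test statistic (a score) of their own comparison. Per the submitters' processing notes, Cuffdiff, Cufflinks 1.1.0, Bowtie 0.12.7 and TopHat 1.3.0 were used. The sources used here name no genome build. Depth is unknown, so no counting interval can be given, and 2 small RNA libraries were not analysed here. RNA was extracted with Trizol and the kit named in the labels' protocols has no stated strand step. Log2 folds were computed as log2 of (second + 0.1) over (first + 0.1) with Python 3.11.15, pandas 2.3.3, numpy 2.4.6 and matplotlib 3.10.9; a gene enters a median at 1 FPKM or more in either library, and a call within a table is the authors' q-value of at most 0.05, which compares 2 libraries, not the genotypes. The count rules were run on simulated data in which few genes changed, evenly up and down. Many more genes differed between these tables, so that check does not cover the common scale here. Members and lists were chosen with earlier results of these data known, and the 2-fold condition between tables (10 percentile points for ranks) was added to the design. Named genes were the paralog pairs, activators and Psmf1, every called row, the 3 highest and lowest folds per table among rows at 5 FPKM or more, and the highest and lowest level per role and stage ratio. Rows that met the rule between tables on both scales, Psmc2 and Psmd8 among them, were named as well. Symbols and promoters came from RefSeq. Some genes of the lists are not reported here.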

Additional observations from a re-analysis of the deposited data

How the results depend on the processing

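Of 78 alternative values, 56 stayed within the main value's range, 21 moved and 1 reversed. Rows called in the day 3 table were 1 at q of at most 0.01, 16 at an unadjusted p of at most 0.05 and 5 at 1.5-fold, beside 9.43%, 27.0% and 28.2% of all genes. By the last 2 settings they were 4 and 2 in pre-meiotic (all genes 10.5% and 8.22%), 5 and 4 in leptotene/zygotene (11.5% and 16.4%), and 5 and 3 in pachytene libraries (11.3% and 15.5%). The share of inducible genes was 1.11% and 1.58% without Psmb10 at day 3; at pachytene it was 0.504% and 0.466% with 0.1 added to each gene and 0.143% and 0.224% without Psmb10. With 0.1 added, the pre-meiotic Psma8 share was 3.603% and 3.609%. The leptotene/zygotene median relative to all genes was 0.016, against -0.05. Rows lower than pre-meiotic on the common scale were 17 for leptotene/zygotene and 13 for pachytene. The pachytene count was 9 with that scale set without the leptotene/zygotene libraries, chosen after seeing the data. By ranks, 4 rows were higher and 25 lower in leptotene/zygotene, and 4 higher and 15 lower in pachytene libraries. No share of all genes is at hand for these counts, so they show no trait of these rows. Psmd9, not named as higher above, stood at percentiles 48.7 and 46.5 in pre-meiotic libraries. It stood at 59.2 and 57.0 in leptotene/zygotene and 58.6 and 61.8 in pachytene libraries. Psma6, Psmc3, Psmc2 and Psmd8 rose by fewer than 10 percentile points in both. Psmc3 already stood at percentiles 98.1 and 97.7 in the pre-meiotic libraries. The cause of these moves was not tested. On the common scale the median log2 ratio of all genes to pre-meiotic libraries was -0.07 for leptotene/zygotene and -0.20 for pachytene libraries. Requiring every pair of libraries to differ 2-fold, chosen after seeing the data, moved no count over 1.5 times. No paired analysis was possible because the conditions are not tied to genotypes and cannot be matched across stages; 1 library per genotype and stage leaves no replicate to leave out. Values near 0 FPKM have no known depth behind them.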
